A study of Mus musculus with 6 samples.

Results

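Secondary follicles of the mouse ovary were examined for 37 genes of ribosome biogenesis and RNA polymerase I, chosen by name, among 18193 genes measured. Each was followed on every probe set of the array whose annotation gave that gene symbol alone, which made 86 of 34945 such probe sets, and all 37 genes had at least 1. Probe sets are the array's units of measurement, each made of several short probes against a stretch of a transcript. For 27 of the genes there were several, so the brightest probe set (the highest mean over all arrays) and 49 dimmer ones were both kept. RNA came from follicles dissected by needle from the ovaries of female, specific pathogen-free C57BL/6J mice that carried no engineered allele or treatment in the labels. The paper itself raises the possibility of a virus infection in these mice, which was not tested here. The young group was 9 weeks old and the old group 32 weeks old, with 3 samples and 3 arrays each. The labels call the samples of an age biological replicates, and how many mice gave each one is not stated there or in the methods. A secondary follicle holds an oocyte and layers of granulosa cells, and in such bulk RNA fewer cells of a type and less RNA per cell cannot be told apart.

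Ribosomes are built mostly in the nucleolus. RNA polymerase I, brought to the ribosomal DNA by the selectivity factor SL1 and by UBTF and RRN3, transcribes the long precursor of the ribosomal RNAs. Small nucleolar ribonucleoproteins then modify that precursor, and separate sets of factors fold, cut and package it into the small and the large subunit. A growing oocyte has a large active nucleolus and stores ribosomes for the embryo, and proliferating granulosa cells need new ribosomes as well. The ribosomal RNAs themselves were not analysed here.

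Probe sets were called where old and young differed at least 2-fold and limma's adjusted p was 0.05 or less, with Benjamini-Hochberg adjustment over all 34945 probe sets. By this rule 4 member probe sets were lower in the old follicles and none was higher. They belonged to Rpf1, Taf1b, Ncl and Npm1. Over all probe sets, 193 were called lower, or 0.552%, and 163 were called higher, or 0.466%, while the 4 member probe sets were 4.65% of 86. Rpf1 and Taf1b were already known to be low when the gene list was drawn up, so this share is a description. On the adjusted p alone, whatever the fold, 22 member probe sets were lower, 4 were higher and 60 did not pass. The lower ones were 25.6% of the members against 13.8% of all probe sets, and the higher ones 4.65% against 8.95%. At an unadjusted p under 0.05, limma gave 31 lower and 10 higher member probe sets, or 36% and 11.6%, against 20.7% and 15.5% of all probe sets. All 3 old samples lay below all 3 young samples for 32 member probe sets, or 37.2%, against 23.7% of all probe sets, and above them for 13, or 15.1%, against 17.6%. Normalizing again by quantiles turned the 22 lower and 4 higher into 19 and 8, and cyclic loess into 19 and 9. Over all probe sets, 4836 lower and 3129 higher became 4321 and 3396 with quantiles, and 4280 and 3468 with cyclic loess.

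**Figure D1:**
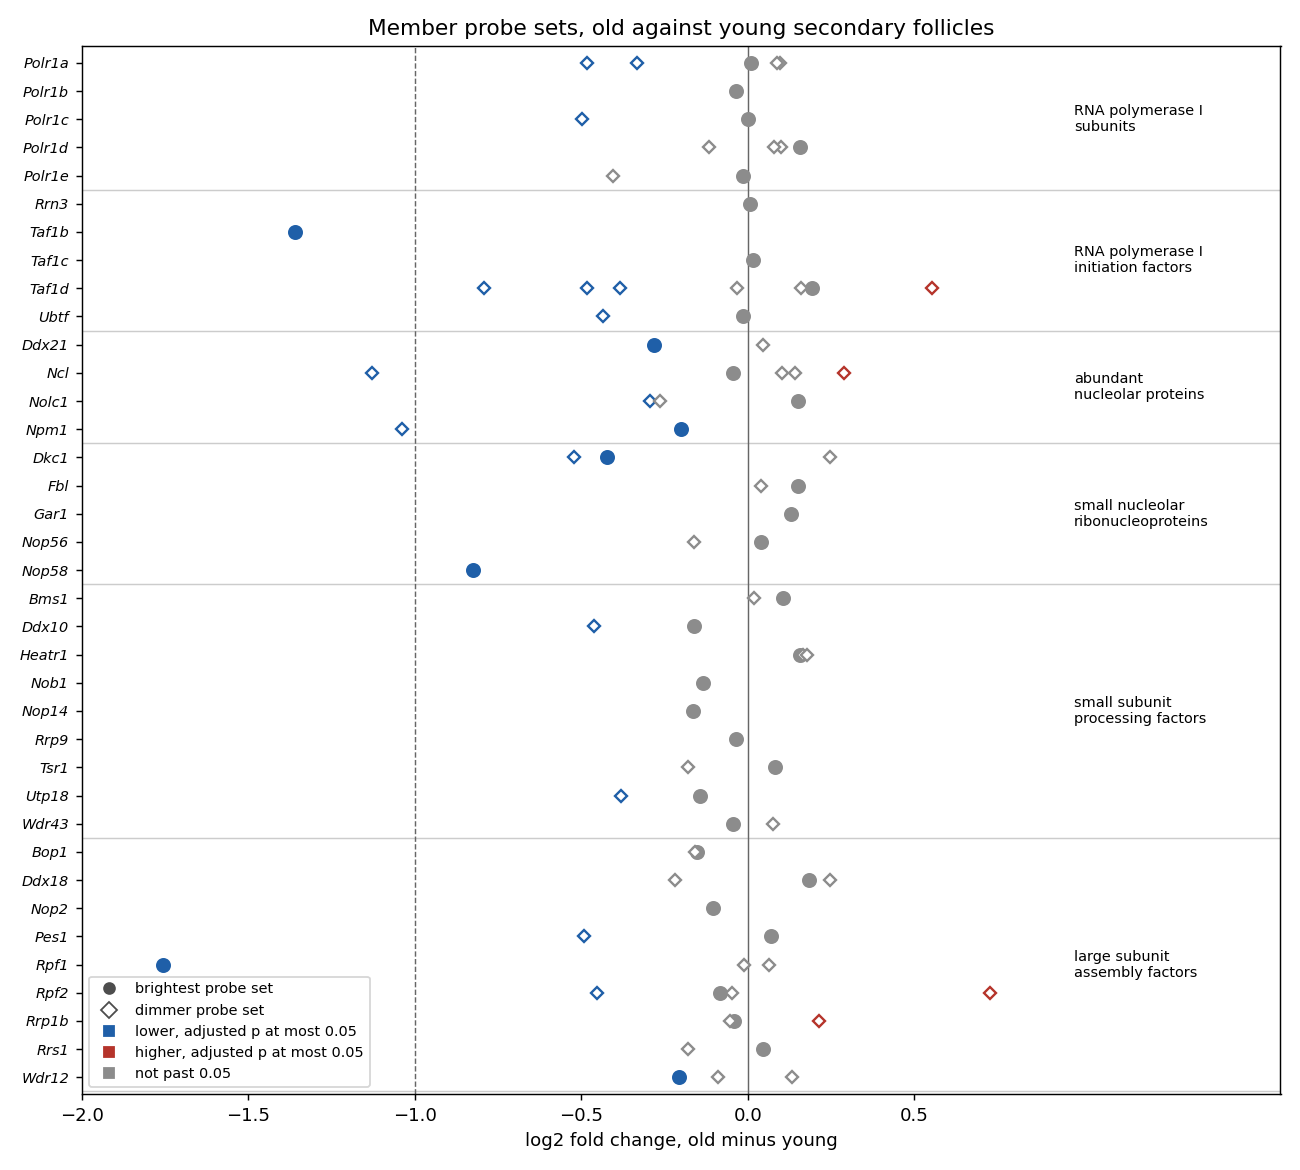
The log2 fold change, old minus young, of all 86 member probe sets (horizontal axis), by gene (vertical axis) and role. Filled circles are the brightest probe set of a gene, open diamonds are dimmer ones, blue and red mark lower and higher probe sets that passed the adjusted p, and grey the rest. The dashed line marks the fold used for calls. The lowest point is Rpf1 at -1.76, and most brightest probe sets lie close to 0.

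Bright probe sets passed as lower more often than dim ones over the array as a whole, and the members were bright. Of the 86 member probe sets, 75 were at or above the median level of all probe sets, and 26.7% of these 75 were lower at the adjusted p and 4% higher. The shares among all 19273 probe sets at or above that level were 21.2% and 8.63%, and 0.773% of them were called lower. Set against probe sets of the same range of levels, the excess of lower members was therefore smaller than against all probe sets. The median log2 fold change was -0.04 over the members and -0.01 over all probe sets. After a further quantile normalization the median was 0.02 over the members and -0.02 over all probe sets. After cyclic loess these medians were 0.01 and -0.01. The sign of the members' median thus depended on the scaling, whereas the 4 calls did not.

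The largest fall was in Rpf1, which encodes ribosome production factor 1, a protein of large subunit assembly. Its brightest probe set read 8.07, 7.85 and 7.85 in the young and 6.14, 6.23 and 6.13 in the old samples (log2 intensity). The groups lay far apart, with every old sample more than a log2 unit below the lowest young sample. The mean went from 7.93 ± 0.13 to 6.17 ± 0.056 (SD, n = 3 each), or 3.38-fold lower (log2 fold change -1.76 with a standard error of 0.08, limma adjusted p = 1.7e-05). Neither of the 2 dimmer probe sets of Rpf1 moved with it. The next brightest was at 5.82, 5.67 and 5.75 in the young and 5.71, 5.74 and 5.98 in the old samples, a difference of 0.06. The dimmest was at 4.64, 4.13 and 4.19 against 4.27, 4.31 and 4.35, a difference of -0.01. In both the ages overlapped.

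Whether probe sets of a gene changed by different amounts was tested on the difference itself, dimmer minus brightest in each sample, with limma over the 16752 such differences of all genes. The dimmer probe sets of Rpf1 differed from the brightest by 1.82 (standard error 0.11, adjusted p = 5.8e-05) and 1.75 (standard error 0.10, adjusted p = 5.1e-05) in their change. The fall of Rpf1 was therefore read by its brightest probe set only. When all 3 were averaged, Rpf1 was no longer called, which left Taf1b as the only member gene called.

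Taf1b encodes a subunit of SL1, the complex that binds RNA polymerase I to its promoter. Its single probe set read 6.23, 6.27 and 6.26 in the young samples. In the old samples it read 4.83, 4.92 and 4.93 (log2 intensity). The replicates of each age were close together, and the ages did not overlap. The mean fell from 6.25 ± 0.025 to 4.89 ± 0.058 (SD, n = 3 each), or 2.57-fold lower (log2 fold change -1.36 with a standard error of 0.06, limma adjusted p = 1.5e-05). With only 1 probe set, no other part of the transcript could be set beside it.

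Taf1b was the only initiation factor that was lower on its brightest probe set. Beside Taf1d, the other genes of this role were Taf1c, also of SL1, Rrn3, which couples the polymerase to SL1, and Ubtf, which binds along ribosomal DNA. Their brightest probe sets were at 0.02, 0.01 and -0.02 (log2 fold change) and did not pass. The dimmer probe set of Ubtf was lower by 0.44 (adjusted p = 0.015 from limma), a change that differed from the brightest by -0.42 (adjusted p = 0.019).

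Taf1d, another SL1 subunit and a host of small nucleolar RNAs, had the most probe sets of any member, 7, and they moved in opposite directions. The brightest read 7.81, 7.66 and 7.74 in the young and 7.99, 7.90 and 7.90 in the old samples, which did not overlap but did not pass (log2 fold change 0.19, standard error 0.07, adjusted p = 0.069 from limma). It did pass after quantile normalization, at 0.28 and an adjusted p of 0.019. One dimmer probe set rose by 0.55 on the log2 scale (adjusted p = 7.4e-04 from limma). Another 3 fell, by 0.38, 0.48 and 0.79 on the log2 scale, and 2 did not pass. The fall of 0.79 differed from the change of the brightest by -0.99 (standard error 0.13, adjusted p = 0.0017).

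None of the 5 subunits of RNA polymerase I passed on its brightest probe set. Polr1a and Polr1b, which form the catalytic core, were at 0.01 and -0.03. Polr1c and Polr1d, shared with RNA polymerase III, were at 0.00 and 0.16, and Polr1e, of the subunit pair that aids initiation, was at -0.02 (log2 fold change). Polr1d was among the 3 highest brightest probe sets of all members, with 10.41, 10.34 and 10.39 in the young and 10.53, 10.58 and 10.49 in the old samples. Its groups did not overlap, though the change of 0.16 had a standard error of 0.06 and an adjusted p of 0.094 in limma. Of 9 dimmer probe sets in this role, 3 were lower, 2 of Polr1a (-0.48 and -0.33) and 1 of Polr1c (-0.50). Each of these 3 differed from its brightest probe set (adjusted p of 0.0050, 0.036 and 0.0064 from limma).

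Nucleolin and nucleophosmin are among the most abundant proteins of the nucleolus, and each was called on a dimmer probe set. Ncl encodes nucleolin, which binds the ribosomal RNA precursor. Its brightest probe set read 11.60, 11.68 and 11.62 in the young and 11.62, 11.59 and 11.57 in the old samples, which overlapped (log2 fold change -0.04, adjusted p = 0.64 in limma). The third in brightness read 7.88, 8.11 and 8.21 in the young and 7.06, 6.95 and 6.81 in the old samples. All old samples were below all young samples there, by -1.13 (log2 fold change, standard error 0.10, adjusted p = 3.8e-04 from limma), or 2.18-fold. Its change differed from that of the brightest probe set by -1.08 (standard error 0.11, adjusted p = 4.4e-04). The second in brightness read 8.71, 8.51 and 8.54 in the young and 8.71, 8.73 and 8.74 in the old samples, a change of 0.14, and the fourth read 5.62, 5.56 and 5.50 against 5.72, 5.61 and 5.66, a change of 0.10. Neither passed. The dimmest, near the lower quartile of all probe sets, read 3.09, 2.89 and 3.02 against 3.32, 3.22 and 3.32 and passed as higher (0.29, limma adjusted p = 0.027), but not after quantile normalization or cyclic loess (adjusted p = 0.068 and 0.056) nor without old replicates 1 or 3 or young replicates 2 or 3 (0.063 to 0.089).

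Npm1 encodes nucleophosmin, a histone and ribosome chaperone. It had 2 probe sets. The first read 12.01, 12.03 and 12.06 in the young and 11.87, 11.80 and 11.82 in the old samples, a change of -0.20 on the log2 scale (limma adjusted p = 0.039, standard error 0.06). The other read 12.24, 12.24 and 12.23 in the young and 11.23, 11.20 and 11.17 in the old samples. Neither probe set had overlapping ages, but their falls were of unequal size. The second fell by 1.04 on the log2 scale (standard error 0.05, adjusted p = 3.4e-05 from limma), and its change differed from the first by -0.84 (standard error 0.08, adjusted p = 4.3e-04). The smaller change of the first probe set lost the threshold when any single array was left out, with adjusted p from 0.060 to 0.11.

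**Figure D2:**
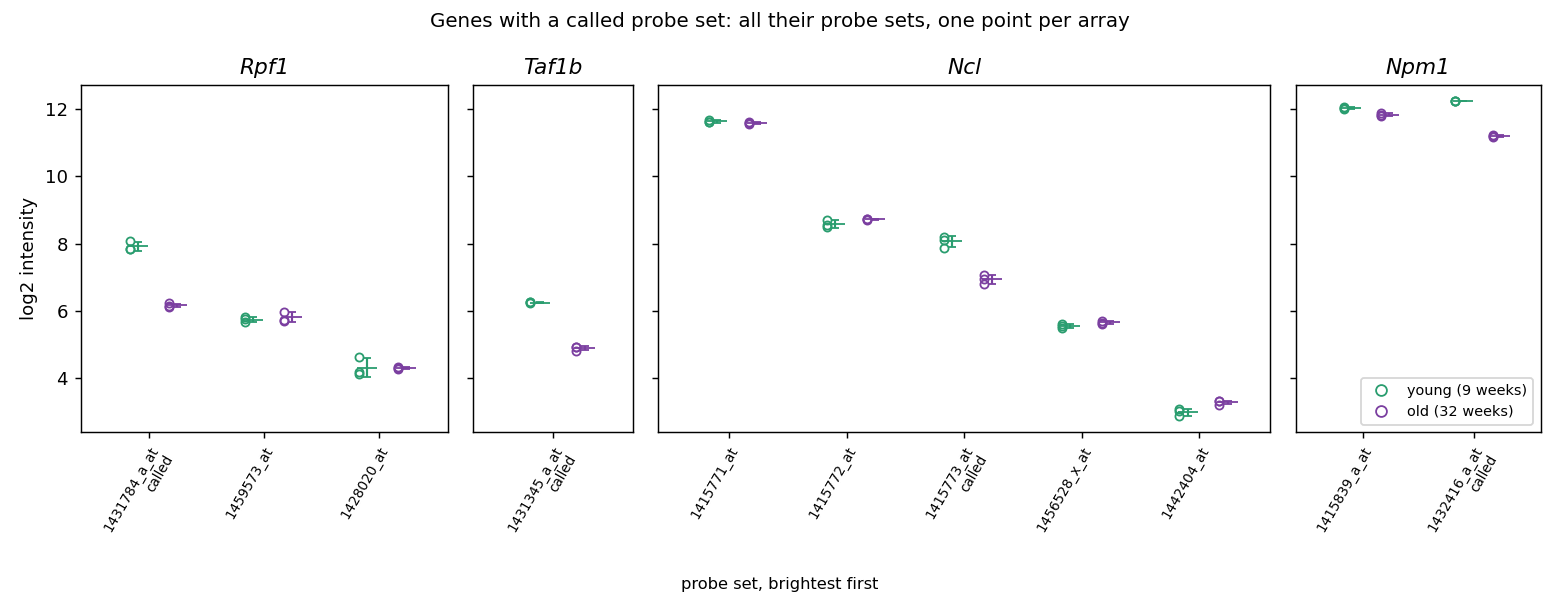
The log2 intensity (vertical axis) on each array for every probe set (horizontal axis, brightest first) of Rpf1, Taf1b, Ncl and Npm1, in young (green) and old (purple) follicles, with the mean and SD of 3 arrays. The called probe sets separate the ages, at 7.93 and 6.17 for Rpf1 and at 6.25 and 4.89 for Taf1b, while the remaining probe sets of Rpf1 overlap.

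Of the other abundant nucleolar proteins, the helicase gene Ddx21, which links polymerase I transcription to processing, was lower on its brightest probe set (-0.28, standard error 0.07, adjusted p = 0.022 from limma) and at 0.05 on the dimmer one. Nolc1, a chaperone of small nucleolar ribonucleoproteins, was at 0.15 on the brightest and lower by 0.29 on the next (adjusted p = 0.017).

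Of the 5 genes of small nucleolar ribonucleoproteins, 2 were lower on their brightest probe sets. Nop58, a core protein of the box C/D particles that guide methylation of ribosomal RNA, was the third lowest of all brightest probe sets. It read 9.87, 9.71 and 9.60 in the young and 8.88, 8.92 and 8.90 in the old samples, its only probe set. The old samples were tightly grouped and all below the young. It was 1.77-fold lower in the old follicles, under the fold of 2 (log2 fold change -0.83 with a standard error of 0.08, limma adjusted p = 4.7e-04). Dkc1, the pseudouridine synthase of the box H/ACA particles, was lower on its brightest probe set, which went from 10.56 ± 0.086 to 10.14 ± 0.014 (SD, n = 3 each, log2 fold change -0.42, adjusted p = 0.0037 from limma). Its second probe set was lower as well, by 0.52 on the log2 scale. The last was at 0.25 and did not pass, and its change differed from that of the brightest by 0.67 (adjusted p = 0.0059). Fbl, the methyltransferase of the box C/D particles, Nop56, the partner of Nop58, and Gar1, of the H/ACA particles, were at 0.15, 0.04 and 0.13 and did not pass.

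The stretch of 250 bases before the gene start was searched on both strands for CACGTG, the E-box that MYC and related factors bind, for CCGGAAGT, an ETS-type site, for the palindromic NRF1-type site, and for the TATA-like TATAAA. The table of RefSeq sequences used here held such a stretch for 32 members and for 14452 measured genes. Fbl, Rpf1, Npm1, Bop1 and Rrs1 were not in it. CACGTG was in 4 of the 32, or 12.5%, against 8.73% of all, and CCGGAAGT in 6, or 18.8%, against 4.95%. TATAAA was in 2, or 6.25%, against 10.5%, and the NRF1-type site in 0, against 1.43%. The sequences of Taf1b and Nop58, the lowest members with such a stretch, are shown with those of Rrn3 and Heatr1, members that did not pass and that hold CACGTG and CCGGAAGT. Capitals mark a motif, and each sequence reads toward the gene on the plus strand of GRCm38.p6.
Taf1b, chr12:24498331-24498580: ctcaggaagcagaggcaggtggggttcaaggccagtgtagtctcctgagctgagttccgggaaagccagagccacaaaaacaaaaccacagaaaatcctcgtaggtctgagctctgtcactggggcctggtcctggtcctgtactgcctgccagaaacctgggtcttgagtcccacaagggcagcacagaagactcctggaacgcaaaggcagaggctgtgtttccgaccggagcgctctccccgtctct
Nop58, chr1:59684756-59685005: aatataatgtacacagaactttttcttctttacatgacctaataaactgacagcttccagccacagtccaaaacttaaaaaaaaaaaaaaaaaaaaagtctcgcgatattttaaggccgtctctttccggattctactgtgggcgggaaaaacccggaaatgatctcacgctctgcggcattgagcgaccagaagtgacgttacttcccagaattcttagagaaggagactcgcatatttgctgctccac
Rrn3, chr16:13780449-13780698: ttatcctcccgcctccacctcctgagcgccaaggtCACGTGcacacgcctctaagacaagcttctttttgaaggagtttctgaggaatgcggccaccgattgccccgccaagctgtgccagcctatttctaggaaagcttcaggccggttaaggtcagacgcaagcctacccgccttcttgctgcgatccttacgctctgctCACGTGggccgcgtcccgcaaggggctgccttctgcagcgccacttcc
Heatr1, chr13:12395125-12395374: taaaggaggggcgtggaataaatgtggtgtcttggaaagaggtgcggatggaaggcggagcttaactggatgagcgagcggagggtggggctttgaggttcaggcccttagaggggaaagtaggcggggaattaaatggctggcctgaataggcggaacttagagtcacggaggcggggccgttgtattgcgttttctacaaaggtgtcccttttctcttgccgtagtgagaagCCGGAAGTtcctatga
Rrn3 holds CACGTG at 2 places and Heatr1 CCGGAAGT at 1, while the stretches of Taf1b and Nop58 hold none of the motifs. The genes with CACGTG were Nop2, Rpf2, Rrn3 and Utp18, whose brightest probe sets did not pass. Those with CCGGAAGT were Bms1, Gar1, Heatr1, Polr1c, Rpf2 and Taf1c, and theirs did not pass either. TATAAA was in Dkc1, whose brightest probe set passed as lower, and in Pes1, whose brightest did not pass. Of all 37 brightest member probe sets 30 did not pass, and dimmer probe sets of Dkc1, Pes1, Polr1c, Rpf2 and Utp18 did pass. A match describes letters in this stretch and says nothing of binding.

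No brightest probe set of the 9 small subunit processing factors passed. They ranged from -0.17 for Nop14 to 0.16 for Heatr1, both parts of the early processome. Ddx10, a helicase, was at -0.16, Utp18 at -0.14 and Nob1, the nuclease of the last cut of the small subunit RNA, at -0.14. Wdr43, Rrp9, Tsr1 and Bms1 were at -0.04, -0.03, 0.08 and 0.11. Among 7 dimmer probe sets of this role, that of Ddx10 was lower by 0.46 and that of Utp18 by 0.38 on the log2 scale (adjusted p = 0.016 and 0.0089 from limma), and for neither did the change differ past the threshold from the brightest. The Utp18 probe set was dim, at 3.27 and 2.89 in the young and old samples, where the lower quartile of all probe sets was 3.13 to 3.24 over the arrays. The 3 probe sets of Heatr1 gave 0.16, 0.17 and 0.18, close to each other.

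Of the other 8 large subunit assembly factors, 1 passed on its brightest probe set, Wdr12. Bop1, Pes1 and Wdr12 form the PeBoW complex, which is needed for processing of the large subunit RNAs. They were at -0.15, 0.07 and -0.21, and Wdr12 passed by a narrow margin (standard error 0.06, adjusted p = 0.048 from limma). Rrs1 and Rpf2, which act together on the particle that carries the small 5S RNA, were at 0.05 and -0.08. Nop2, an RNA methyltransferase, was at -0.11 and Rrp1b at -0.04. The helicase gene Ddx18 read 8.50, 8.50 and 8.44 in the young and 8.65, 8.74 and 8.61 in the old samples. Those groups did not overlap, and the change of 0.18 (standard error 0.06) had an adjusted p of 0.068 in limma, which passed at 0.25 after quantile normalization (adjusted p = 0.017). The next probe set of Ddx18 went the other way, with 8.45, 8.54 and 8.49 in the young and 8.23, 8.21 and 8.38 in the old samples. Those did not overlap either (log2 fold change -0.22, adjusted p = 0.056), and the change differed from that of the brightest by -0.40 (standard error 0.10, adjusted p = 0.023 from limma). The dimmest was at 0.25 and did not pass.

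Rpf2 held the highest change of any member probe set. The third of its probe sets in brightness read 6.55, 6.46 and 6.64 in the young and 7.48, 7.19 and 7.17 in the old samples (log2 fold change 0.73, standard error 0.10, adjusted p = 0.0020 from limma). The second went the other way, lower by 0.45 on the log2 scale (adjusted p = 0.011). The rise differed from the change of the brightest by 0.81 (standard error 0.10, adjusted p = 0.0014). A dimmer probe set of Pes1 was lower by 0.49 (adjusted p = 0.0031), and one of Rrp1b was higher by 0.21 (adjusted p = 0.044).

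Across the members, 14 of the 49 dimmer probe sets had a lower log2 fold change than their gene's brightest at the adjusted p of limma's test of the difference, and 7 had a higher one. These were 28.6% and 14.3%, against 13.6% and 10.6% of all 16752 dimmer probe sets. The list of other ribosome biogenesis factors leaned the other way, with 6 of 109 differences lower, or 5.5%, and 14 higher, or 12.8%, and a median of 0.04, where the median was -0.09 over the members. The 14 lay in 10 genes. In Npm1, Taf1d and Ddx18 a dimmer probe set would have been taken as the brightest on the young arrays alone, so there the name rests on the rule of the mean over all arrays. Without young replicate 3 they numbered 9, and the 7 numbered 4 without old replicates 2 or 3 or young replicates 2 or 3. At least 1 probe set was lower at the adjusted p in 17 of the 37 member genes, or 45.9%, against 21.3% of all genes. Among genes with several probe sets the shares were 55.6% of 27 members and 32.9% of all 9010. Of the 17, 7 were lower on the brightest, and the brightest probe sets so lower were 18.9% of 37, against 12.4% of all brightest probe sets. These shares are not at like levels, since all 37 were at or above the median level, as were 11474 of all brightest. With dim probe sets left out and the rest fitted again, 10 of these 37 and 2965 of these 11474 were lower. By the fold of 2 as well, 2 of 37 brightest were called lower and 0 higher, where 0.126% and 0.638% of all brightest probe sets were. These 2 were of Rpf1 and Taf1b, known to be low when the gene list was drawn up, so this count is a description. When 1 array was left out, 4 or 5 brightest member probe sets were lower in place of 7. The dimmer probe sets so lower were 15 of 49, or 30.6%, against 15.4% of all dimmer ones, and those higher were 4, or 8.16%, against 8.54%. Of the 49, 2 were called lower, where 1.01% of all dimmer probe sets were. Ncl, Taf1d and Rpf2 had probe sets past the threshold in both directions. No brightest member probe set was higher at the adjusted p, against 9.34% of all brightest probe sets, but 5 were after quantile normalization and 6 after cyclic loess, when 5 were lower. Of all 18193 brightest probe sets, 1699 were higher, which became 1975 after quantile normalization and 2008 after cyclic loess.

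**Figure D3:**
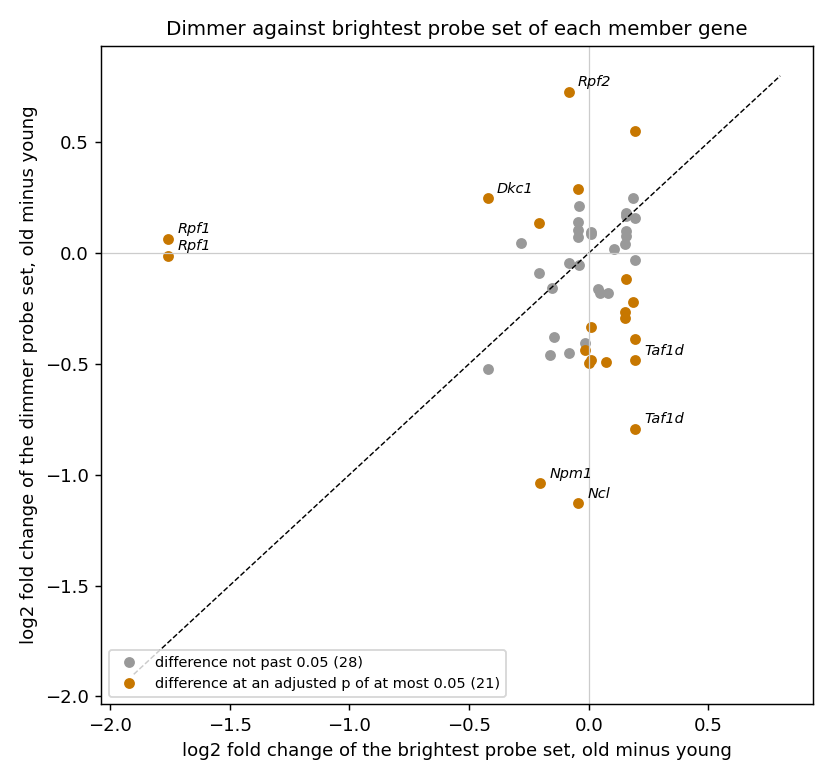
The log2 fold change of each of 49 dimmer member probe sets (vertical axis) against that of the brightest probe set of its gene (horizontal axis), old minus young. The dashed line marks equal change, and orange points are the 21 whose difference passed the adjusted p. The 2 points of Rpf1 lie far to the left at -1.76, and the called probe sets of Npm1 and Ncl lie below the line.

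Control probe sets for RNA quality and labelling differed between the ages on the same arrays. The Gapdh probe set nearest the transcript end was above the one at its start by 0.47 ± 0.014 in the young and by 1.51 ± 0.0048 in the old samples (log2 intensity, SD, n = 3 each), and for beta-actin these differences were 1.48 ± 0.033 and 2.53 ± 0.050. For each, an exact two-sided permutation test gave p = 0.1, the smallest that 3 samples against 3 allow. The position of each member probe set within its transcript was not analysed here, and the part of this difference in the results for dimmer and brightest probe sets was not tested.

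Cell type markers moved too. Of 8 granulosa cell markers, 1 was lower at the adjusted p and none was higher, and their summed intensity was 22294 to 22677 in the young and 22042 to 22684 in the old samples. The oocyte markers were bright as well, and 7 of 8 were lower at the adjusted p, none by a fold of 2 (median log2 fold change -0.31). Their summed intensity was 22737 to 23559 in the young and 19371 to 19820 in the old samples. Macrophage and dendritic cell markers summed to between 293 and 316 in the young and between 447 and 491 in the old samples, with 4 of 8 higher, of which Ctss was called (log2 fold change 1.36), and 1 lower, while Itgam was at 2.16 and 2.15 (log2 intensity). Theca and stromal markers had 4 of 8 higher and 1 lower (3120 to 3346 against 3340 to 3463), and the steroidogenic genes Star and Cyp11a1 among them were called higher, at 1.87 and 1.34. Surface epithelium markers had 3 of 3 higher (74.4 to 77.9 against 171 to 200), with Krt19 and Upk3b called, at 1.55 and 1.17. Endothelial and red blood cell markers had 1 of 4 and 1 of 2 higher, with summed intensities of 129 to 135 against 145 to 160, and of 39.8 to 45.2 against 63.5 to 73.0. The part of these markers in the results for the ribosome biogenesis genes was not tested.

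The wider pathway was read from a list of 116 other ribosome biogenesis factors, of which 111 were measured on 220 probe sets. Of these, 39 were lower and 9 higher at the adjusted p, or 17.7% and 4.09%, against 13.8% and 8.95% of all probe sets, with a median log2 fold change of -0.07. At or above the median level of all probe sets, 20.1% of the other factors were lower, against 21.2% of all, so that no excess of lower probe sets was seen at like levels. The higher share at these levels was 3.26%, against 8.63% of all. Quantile normalization gave 32 lower and 13 higher with a median of -0.02, and cyclic loess 32 and 14 with a median of -0.02. On the brightest probe sets 22 of 111 were lower, or 19.8%, against 12.4% of all brightest, and 1 was higher, Pelp1, at 0.19. These shares are not at like levels, since all 111 genes reached the median level, as did 11474 of all 18193 genes. A single probe set was called, a dim one of Esf1, a small subunit processing factor. It read 2.90, 3.54 and 3.49 in the young and 2.51, 1.76 and 2.40 in the old samples (log2 fold change -1.09, standard error 0.23, adjusted p = 0.014 from limma), levels near or below the lower quartile of all probe sets. This call was lost without old replicate 2 or young replicates 2 or 3. The brightest probe set of Esf1 was lower by 0.52 on the log2 scale (adjusted p = 0.0020).

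The lower brightest probe sets with the smallest adjusted p, chosen after their values were seen, were of several roles. Nip7 and Rsl1d1, of large subunit assembly, were at -0.65 and -0.65, and Dimt1, a methyltransferase of small subunit RNA, at -0.60. Xrn2, the exonuclease that trims ribosomal RNA ends, was at -0.58, and Pno1, a partner of Nob1, at -0.79. Nol11, of the early processome, was at -0.57, and Exosc3 and Exosc2, of the RNA exosome that degrades spacer fragments, at -0.51 and -0.49. None reached a fold of 2. The dimmer probe set of Nip7 was higher, by 0.24 on the log2 scale (adjusted p = 0.038 from limma), and so was that of Exosc2, by 0.32 (adjusted p = 0.019). That Exosc2 probe set was dim, at 2.55 and 2.88 in the young and old samples, below the lower quartile of all probe sets.

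**Figure D4:**
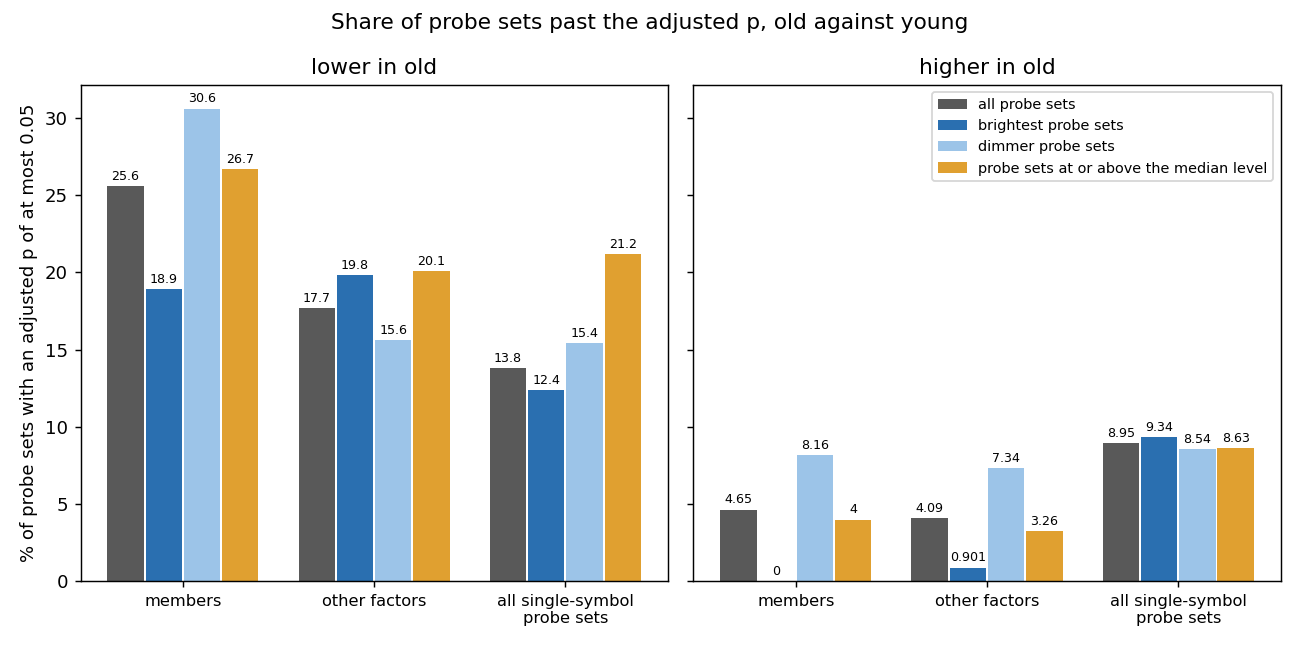
The percentage of probe sets that passed the adjusted p as lower (left) or higher (right) in old follicles, for the members, the other ribosome biogenesis factors and all probe sets with 1 gene symbol, by kind of probe set. For probe sets at or above the median level, the lower share was 26.7% in the members, 20.1% in the other factors and 21.2% overall.

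Several members share a feature the list did not use, in that small nucleolar RNA genes lie within them. By RefSeq gene spans of GRCm38.p6, whatever the strand, 7 of the 37 members enclosed at least 1 such gene, or 18.9%, against 312 of 16470 measured protein-coding genes, or 1.89%. Taf1d enclosed 6, Nop56 5, Nop58 4, Wdr43 3, Ncl 2, and Dkc1 and Tsr1 1 each. Of these 7 hosts, 4 had at least 1 probe set lower at the adjusted p (Taf1d, Nop58, Ncl and Dkc1), and of the other 30 members 13 had, where 21.3% of all genes did. A gene with more probe sets has more chances to be counted so, and Taf1d had 7 and Ncl 5.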

How the data were processed

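RNA of 6 samples, 3 young and 3 old, was hybridized to Affymetrix 3' expression arrays of the mouse genome, 1 per sample. The authors processed the scans with RMA (version not given in the sources used here), which corrects background, normalizes by quantiles and summarizes probes, and deposited intensity values on a linear scale, from 2.62 to 13880. Log2 of the deposited intensity was taken with no pseudocount. The scan files were not used.

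Gene symbols came from the platform annotation, updated by gene ID through RefSeq GRCm38.p6 (18032 of 18193 genes matched). Those with 1 symbol (34945) were tested; 932 with several, 9160 not listed and 64 controls were left out. Of the listed other factors, 5 of 116 were not matched. Old was compared with young in limma 3.58.1 under R 4.3.3 with lmFit, eBayes and Benjamini-Hochberg adjustment over all tested probe sets (two-sided), with the fold and p limits of the paper. SAM, the test it names, was an alternative, written from its description. The other alternatives were 2 normalizations, a filter on dim probe sets, a trend with robust eBayes, array weights, shared probe sets left out, a replicate block, a fold of 1.5, and leaving out each sample. The scripts were tested on simulated data. The median SD within groups was 0.10 (log2), median levels were 4.93 to 4.95, lower quartiles 3.13 to 3.14 in young and 3.20 to 3.24 in old, upper quartiles 7.17 to 7.20 and 7.10 to 7.14, and correlations were 0.9968 to 0.9982 within and 0.9903 to 0.9918 between ages. The number of arrays limits the precision.

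Every member was named, with values per sample for called probe sets, the other probe sets of their genes (by sample or by change), and the 3 lowest and highest brightest probe sets. Members, lists and tests were chosen with earlier results of these data known. Other probe sets of members were added after their values were seen.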

Additional observations from a re-analysis of the deposited data

How the results depend on the processing

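The 4 member probe sets called lower, those of Rpf1, Taf1b, Ncl and Npm1, numbered 4 under SAM, both normalizations, the filter on dim probe sets, the trend with robust eBayes, array weights, the loss of shared probe sets and the replicate block, and when any array was left out. With a fold of at least 1.5 there were 6 lower and 1 higher, and 7 lower and 1 higher among the other factors. The share of all probe sets at that fold is not given here, so these counts are a description. Averaging all probe sets of a gene left 1 gene called lower in place of 2, and with the brightest probe set chosen on the young arrays, an alternative added after the data were seen, there were 3.

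Counts without a fold limit moved more. Member probe sets higher at the adjusted p numbered 4, but 2 with SAM, 9 with cyclic loess, 8 without dim probe sets, 8 with quantile normalization and 11 with the trend. Of all probe sets, 3129 higher became 2325, 3468, 2514 of 19273, 3396 and 3849 in the same order. Among all member calls at that p, the higher share was 15.4%, against 29.6% after quantile normalization and 32.1% after cyclic loess. Over all probe sets this share was 39.3%, 44% and 44.8% in the same order. Brightest member probe sets that were higher numbered 0, but 1 with array weights, 6 with cyclic loess, 5 without dim probe sets, 5 with quantile normalization and 7 with the trend. Of all brightest probe sets, 1699 higher became 2139, 2008, 1494 of 11474, 1975 and 2200 in the same order. For the other factors, 1 called lower became 0 without dim probe sets, 39 lower became 59 with the trend, and 9 higher became 4 with SAM and 14 with cyclic loess. With the trend, 4836 lower among all probe sets became 6167. The cause of these shifts was not tested. Leaving out 1 array gave 17 to 21 lower and 2 to 4 higher member probe sets, and 4 to 5 lower brightest ones, with 4 lower without old replicates 2 or 3 or any young replicate. Member probe sets that were higher numbered 2 without old replicates 1 or 3 or young replicates 2 or 3. Leaving out 1 array also gave 0 to 1 called and 3 to 7 higher among the other factors, 9 to 12 dimmer probe sets with a change below the brightest, and 4 to 6 above.

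Deviations from the mean of the age were only weakly correlated between samples of the same number (r = 0.065, 0.014 and 0.043 across probe sets). Between samples of unlike number r was -0.078 to 0.052. With 3 samples per age, these values cannot settle whether the numbers pair the samples. With the replicate block there were 19 lower and 3 higher member probe sets in place of 22 and 4. With 3 arrays per age, precision is limited, and levels of different probe sets are not comparable. The smaller fall of the Npm1 probe set brightest over all arrays did not pass with the block (adjusted p = 0.086) or with SAM (0.094).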
